A study of Mus musculus with 24 samples.

Results

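Cxcl9, Cxcl10 and Cxcl11 encode the chemokines that bind the receptor CXCR3, which is encoded by Cxcr3. These 4 genes, of 22180 genes measured, were taken by their symbol in the platform annotation of the arrays. Each symbol had 1 probe set: 17449710 for Cxcl9, 17449718 for Cxcl10, 17449725 for Cxcl11 and 17543625 for Cxcr3. RNA came from the cortex of 24 male mice aged 18 days, with 1 array per mouse. The mice belonged to 4 inbred strains, SV129, FVB, C57 (C57BL/6JOlaHsd) and C3H, and the labels name no engineered allele. In each strain 3 mice received intraperitoneal conduritol B-epoxide (CBE), 25 mg per kg per day, from day 8 to day 18, and 3 received phosphate-buffered saline (PBS). CBE blocks the lysosomal enzyme glucocerebrosidase, whose inherited loss causes Gaucher disease. The model is therefore a drug given to young mice and not an inherited defect, and the tissue is what a 1 mm coronal slice of cortex holds. Mice are named below by strain, agent and a number that is only a name. No source says whether mice shared a litter, so p-values measure the spread between these mice.

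CXCL9, CXCL10 and CXCL11 are small secreted proteins that draw activated T cells and natural killer cells towards the cells that release them. The genes are switched on by interferons: Cxcl9 depends mostly on interferon-gamma, while Cxcl10 also answers to type I interferon and to NF-kappaB, and Cxcl11 to both kinds of interferon. In brain, microglia, astrocytes, endothelial cells and neurons can all make CXCL10 during infection or injury, while most of the receptor is carried by lymphocytes that enter the tissue. The 3 ligand genes lie close together on mouse chromosome 5, and Cxcr3 lies on X. In C57BL/6 mice a frameshift in Cxcl11 is known to prevent the protein from being made, and RefSeq's GRCm38.p6 assembly, which is of that strain, lists Cxcl11 as a transcribed pseudogene. A level of Cxcl11 below is a level of transcript.

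The sequence before the start site is shown for Cxcl9 and Cxcl10 as a description. Its part in the strain differences below was not tested. RefSeq promoters (GRCm38.p6) were matched for 3 of the 4 genes, Cxcl9, Cxcl10 and Cxcr3. The 250 bases before the start were searched on both strands for the core of the interferon-stimulated response element (GAAA, any 2 bases, GAAA) and for NF-kappaB (GGG, any 5 bases, CC). Below, the minus strand is written 5′ to 3′ and ends at the base before the start, with matches in capitals. The Cxcl9 stretch is chr5:92328080-92328329 and the Cxcl10 stretch is chr5:92348890-92349139.
Cxcl9: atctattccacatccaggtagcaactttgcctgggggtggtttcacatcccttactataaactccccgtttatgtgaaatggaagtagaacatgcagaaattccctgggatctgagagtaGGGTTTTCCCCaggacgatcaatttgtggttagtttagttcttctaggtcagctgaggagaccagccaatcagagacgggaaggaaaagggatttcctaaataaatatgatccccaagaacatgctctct
Cxcl10: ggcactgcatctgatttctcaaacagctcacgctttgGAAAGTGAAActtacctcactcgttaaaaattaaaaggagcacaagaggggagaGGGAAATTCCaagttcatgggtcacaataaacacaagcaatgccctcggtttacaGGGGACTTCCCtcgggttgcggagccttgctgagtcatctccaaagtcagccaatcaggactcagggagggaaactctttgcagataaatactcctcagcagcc
The Cxcl10 window holds GAAAGTGAAA, which begins 213 bases before the start and matches the interferon-stimulated response element. It also holds GGGAAATTCC at 159 bases and the overlapping GGGGACTTCC and GGGACTTCCC at 104 and 103 bases, all matches to the NF-kappaB letters. The Cxcl9 window holds the overlapping NF-kappaB matches GGGTTTTCCC at 130 bases and, on the other strand, GGTTTTCCCC at 129 bases, and no match to the interferon-stimulated response element. The Cxcr3 window, not shown, holds the NF-kappaB match GGCTAGCCCC at 139 bases on the other strand. Among 32851 promoters of this length, 2.98% held the interferon-stimulated response element letters and 45.8% the NF-kappaB letters. The sequence is that of C57BL/6J, and the other strains may differ from it.

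The arrays give log2 signal, where 1 unit is a doubling. The median of all values was 4.183, and array medians ran from 4.14 to 4.22. Arrays of 1 group correlated at 0.989 to 0.993 over all probe sets. Markers of cortical neurons bore out the tissue label: all 7 measured lay above the median, and their mean per array ran from 8.42 to 8.69 in PBS mice and from 8.45 to 8.64 in CBE mice. The median standard error of a change was 0.05 for the mean of 4 strains and 0.1 within a strain, and the number of arrays limits this precision. FVB CBE 1 and C3H CBE 1 stood apart from the other mice of their groups in some ligands, and results that turn on them are also given without them.

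In PBS mice the 4 genes lay near the low end of the scale in every strain. Cxcl9 ran from 3.40 to 3.85 over the 12 PBS arrays, Cxcl10 from 3.55 to 4.06, Cxcl11 from 3.89 to 4.35 and Cxcr3 from 3.53 to 3.95. Cxcl9, Cxcl10 and Cxcr3 were below the median of all values on 12 of 12 PBS arrays and Cxcl11 on 11. At such signals a probe set can hide or shrink a change, so folds below may understate it. Differences among the PBS groups did not pass the test for any of the 4 (limma's F-test, adjusted p = 0.97 for Cxcl9, 0.79 for Cxcl10, 0.74 for Cxcl11 and 0.34 for Cxcr3), while 13% of all genes passed it.

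**Figure D1:**
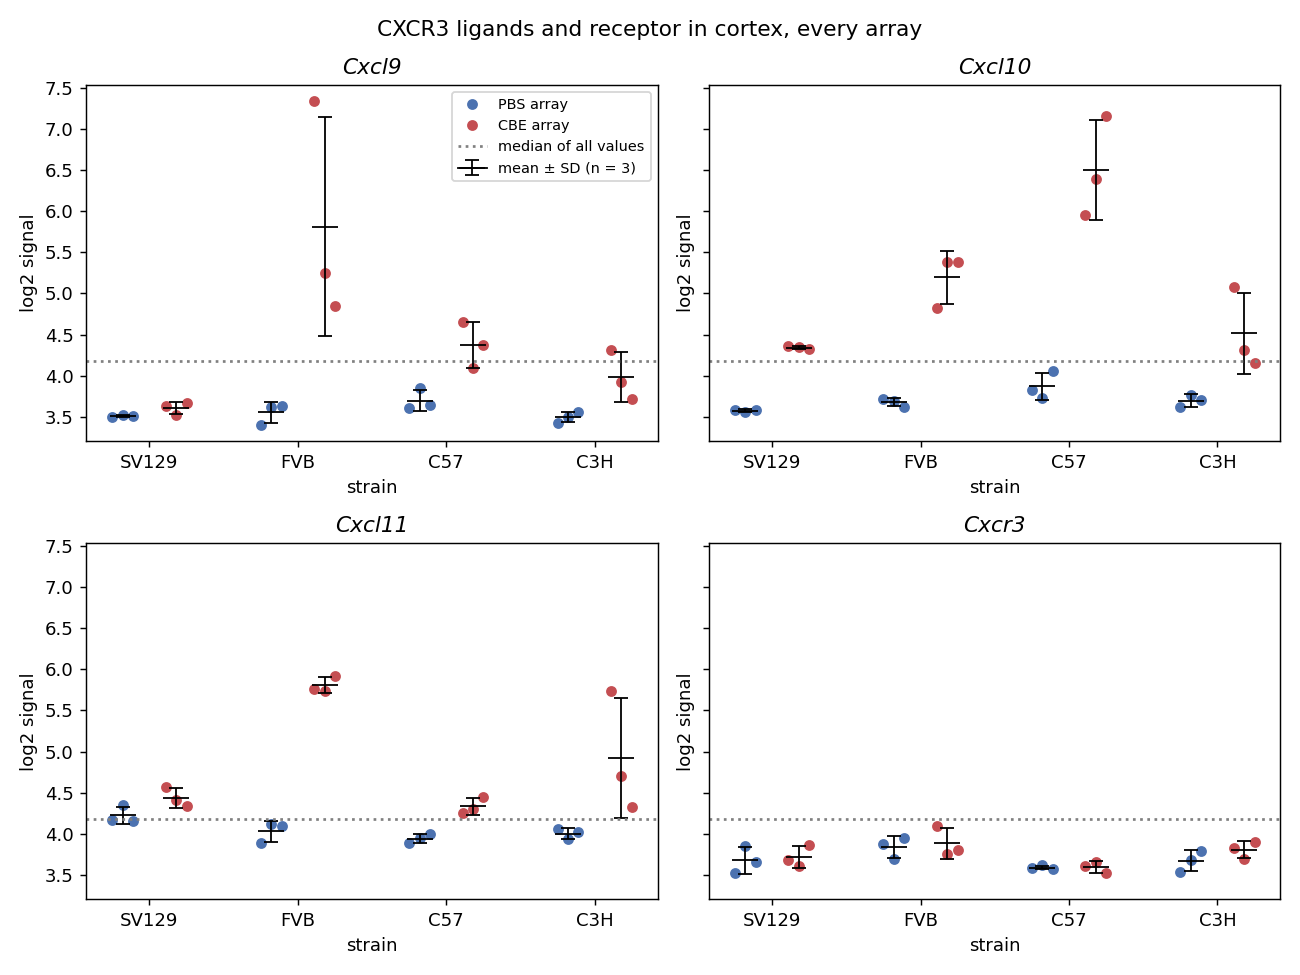
Log2 signal (vertical axis) of Cxcl9, Cxcl10, Cxcl11 and Cxcr3 on each of the 24 arrays, by strain and agent. Points are mice, bars are the mean ± SD of 3 mice, and the dotted line is the median of all values, 4.183. Cxcl10 on the 12 CBE arrays lies at or above 4.15, over every PBS array, and FVB CBE 1 stands alone for Cxcl9 at 7.33.

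Cxcl10 rose with CBE over the 4 strains together, and on all 12 CBE arrays it lay above all 12 PBS arrays. In SV129 the PBS mice read 3.59, 3.55 and 3.58 and the CBE mice 4.35, 4.35 and 4.32. In FVB the values were 3.72, 3.69 and 3.62 with PBS and 4.83, 5.38 and 5.38 with CBE. C57 had the highest CBE levels, 5.95, 6.39 and 7.15, against 3.83, 3.73 and 4.06 with PBS. In C3H the PBS mice read 3.62, 3.77 and 3.71 and the CBE mice 5.08, 4.31 and 4.15. The lowest CBE value, 4.15 in C3H, was thus above the highest PBS value, 4.06 in C57. Only 5 genes (0.0225%) had all 12 CBE arrays above all 12 PBS arrays, and 0.144% had each CBE array above every PBS array of its strain. The mean change of the 4 strains was 1.43 ± 0.11 (SE), or 2.70-fold, with a 95% interval of 2.30 to 3.17 (limma, adjusted p = 5.3e-08). An exact permutation of the agent within strains gave p = 1.25e-05, two-sided, the smallest it can give. Of all genes, 0.609% rose by the same test.

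Within strains, Cxcl10 rose in C57 and FVB. The C57 change was 2.62 ± 0.22 (SE), 6.16-fold with an interval of 4.47 to 8.49 (limma, adjusted p = 1.1e-06), in a strain where 0.316% of genes rose. The FVB change was 1.52 ± 0.22, 2.86-fold with an interval of 2.08 to 3.95 (adjusted p = 0.0016), where 0.135% of genes rose. In SV129 the change was 0.77 ± 0.22 (adjusted p = 0.14) and in C3H 0.82 ± 0.22 (adjusted p = 0.50), or 0.53 without C3H CBE 1. Neither passed, although the 3 CBE mice lay above the 3 PBS mice in both. Of all genes, 0.0135% rose in SV129 and 0.0361% in C3H, while 3 CBE arrays lay above 3 PBS arrays for 6.52% of genes in SV129, 5.82% in C57, 5.09% in FVB and 4.5% in C3H. Fitted on the 6 SV129 arrays alone, where the 3 mice of each agent lie within 0.04 of each other, the same change passed (adjusted p = 0.029).

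Cxcl9, the ligand that depends most on interferon-gamma, rose over the 4 strains together, with most of the change in FVB. In FVB the PBS mice read 3.40, 3.62 and 3.64 and the CBE mice 7.33, 5.25 and 4.85. FVB CBE 1 stood far above the other two, but both of those were above every PBS array of the study. In C57 Cxcl9 was 3.60, 3.85 and 3.64 with PBS and 4.65, 4.09 and 4.38 with CBE, and in C3H it was 3.43, 3.50 and 3.55 with PBS and 4.32, 3.92 and 3.72 with CBE. In both strains the 3 CBE mice lay above the 3 PBS mice, as for 5.82% of all genes in C57 and 4.5% in C3H. In SV129 the PBS values were 3.50, 3.53 and 3.51 and the CBE values 3.64, 3.53 and 3.66, and SV129 CBE 2 lay within the PBS mice.

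The mean change of Cxcl9 over the 4 strains was 0.88 ± 0.18 (SE), or 1.84-fold, with an interval of 1.42 to 2.38 (limma, adjusted p = 0.015; exact permutation p = 2.5e-05, two-sided). All 12 CBE arrays lay above the PBS mean of their strain, as for 0.546% of genes, and 8 lay above all 12 PBS arrays. Without moderation of the variance the adjusted p was 0.079. The FVB change was 2.26 ± 0.36, 4.79-fold with an interval of 2.86 to 8.02 (limma, adjusted p = 0.0038). It was 1.50 without FVB CBE 1, and on the FVB arrays alone its adjusted p was 0.30. The changes in C57 (0.68 ± 0.36, adjusted p = 0.90), C3H (0.49 ± 0.36, or 0.32 without C3H CBE 1, adjusted p = 1.0) and SV129 (0.10 ± 0.36, adjusted p = 0.94) did not pass. These standard errors carry the spread of FVB CBE 1, since all groups share 1 estimate: without that mouse the C57 change passed, at an adjusted p of 0.033.

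Cxcl11 also rose over the 4 strains together, and its highest group was FVB with CBE. FVB mice read 3.89, 4.11 and 4.10 with PBS and 5.76, 5.74 and 5.92 with CBE, the tightest of the raised groups of this gene. In C3H it was 4.06, 3.94 and 4.02 with PBS and 5.73, 4.71 and 4.32 with CBE, so C3H CBE 1 reached the FVB level and the others did not. C57 mice moved from 3.89, 3.95 and 3.99 to 4.25, 4.31 and 4.45, with no overlap, as for 5.82% of all genes in C57. SV129 mice read 4.17, 4.35 and 4.16 with PBS and 4.57, 4.41 and 4.33 with CBE, and SV129 CBE 3 lay below the highest PBS mouse.

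The mean change of Cxcl11 was 0.82 ± 0.10 (SE), or 1.77-fold, with an interval of 1.53 to 2.05 (limma, adjusted p = 4.4e-05; exact permutation p = 2.5e-05, two-sided). The FVB change was 1.78 ± 0.20, 3.42-fold with an interval of 2.57 to 4.57 (adjusted p = 8.0e-05). In C3H it was 0.92 ± 0.20 (adjusted p = 0.17), in C57 0.39 ± 0.20 (adjusted p = 0.88) and in SV129 0.21 ± 0.20 (adjusted p = 0.71), and none of these passed. Without C3H CBE 3, the lowest of its group, the C3H change of Cxcl11 was 1.22 (adjusted p = 0.0030), and without C3H CBE 1, the highest, it was 0.51 (adjusted p = 0.20).

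Cxcr3, the receptor, passed no test of a difference between agents. Its 8 group means lay between 3.59 and 3.88, each group overlapped the next in that order, and 12 of 12 CBE arrays were below the median of all values. SV129 mice read 3.53, 3.85 and 3.67 with PBS and 3.69, 3.61 and 3.86 with CBE. FVB mice read 3.87, 3.70 and 3.95, against 4.10, 3.75 and 3.80. C57 mice read 3.58, 3.62 and 3.58, against 3.61, 3.66 and 3.52. C3H mice read 3.54, 3.68 and 3.80, against 3.83, 3.69 and 3.90. The agents overlapped in every strain, and 8 of 12 CBE arrays lay above the PBS mean of their strain. The mean change was 0.06 ± 0.05, with an interval from -0.05 to 0.16 (limma, adjusted p = 0.77; exact permutation p = 0.263). In the 4 strains it ran from 0.01 in C57 to 0.13 in C3H, each ± 0.10, and adjusted p was 0.91 or more. Small values such as these changed sign with single arrays or with another scaling in SV129, FVB or C57. At this signal a change in a small part of the tissue would not be detectable.

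**Figure D2:**
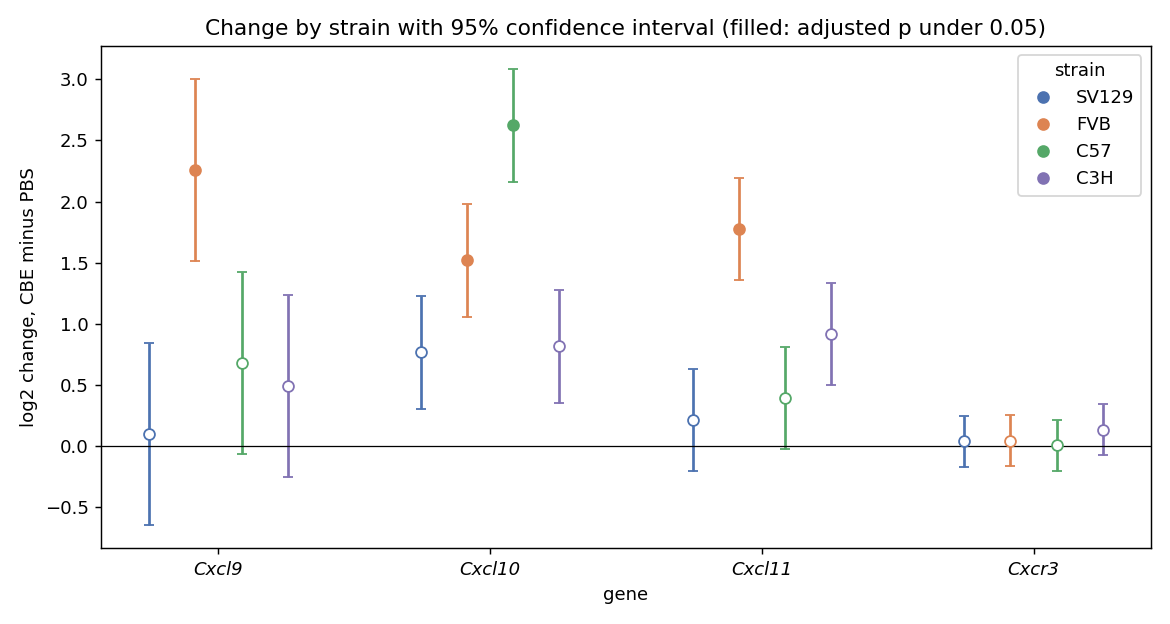
Change with CBE (log2, vertical axis) of the 4 genes by strain, as the fitted CBE minus PBS difference with its 95% interval. Filled points passed an adjusted p of 0.05. Cxcl10 is filled in FVB (1.52) and C57 (2.62), Cxcl9 and Cxcl11 in FVB alone (2.26 and 1.78), and Cxcr3 nowhere.

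The order of the groups differed between the ligands. For Cxcl10, C57 with CBE stood highest (6.50 ± 0.61, SD, n = 3), followed by FVB (5.19 ± 0.32), C3H (4.51 ± 0.49) and SV129 (4.34 ± 0.02) with CBE and then by the 4 PBS groups. C57 with CBE did not overlap FVB with CBE, while FVB, C3H and SV129 each overlapped the next. The share of all genes whose CBE groups lie apart between strains was not counted, and 13% of all genes differed among the PBS groups. For Cxcl9 and Cxcl11, FVB with CBE had the highest mean. Cxcl9 in FVB with CBE (5.81 ± 1.33) was above C57 (4.37 ± 0.28), C3H (3.98 ± 0.31) and SV129 (3.61 ± 0.07) with CBE, and SV129 with CBE overlapped the PBS groups on both sides of it. For Cxcl11, FVB with CBE (5.81 ± 0.10) was above C3H (4.92 ± 0.73), SV129 (4.44 ± 0.12) and C57 (4.34 ± 0.10) with CBE, and those 3 overlapped from each to the next. The lowest FVB CBE mouse, 5.74, was barely above C3H CBE 1, 5.73. By mean level with CBE, C57 was thus highest for Cxcl10 and lowest for Cxcl11, where it overlapped SV129. By change, Cxcl11 was smallest in SV129 (0.21), against 0.39 in C57.

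A difference of the change between strains was tested directly. Equality of the 4 changes was not rejected for any of the 4 genes (limma's F-test of the interaction, adjusted p = 0.079 for Cxcl10, 0.17 for Cxcl11, 0.47 for Cxcl9 and 0.98 for Cxcr3). Before adjustment over all genes, p was 1.8e-05 for Cxcl10, 7.3e-05 for Cxcl11 and 0.0019 for Cxcl9 by the same limma test. Only 2 genes (0.00902%) passed this test. It turned on single mice: without C3H CBE 1 the adjusted p was 0.0041 for Cxcl10 and 1.5e-05 for Cxcl11. Without C57 CBE 1 it was 0.0090 for Cxcl10, and without C3H CBE 3 it was 0.017 for Cxcl11. With FVB CBE 1 and C3H CBE 1 both left out, a choice made after their values were seen, it was 0.0054 for Cxcl9, 0.0031 for Cxcl10 and 1.2e-04 for Cxcl11, and 24 genes passed. With arrays centred on their medians Cxcl10 also passed (adjusted p = 0.042).

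Of the 6 strain pairs, 1 difference of a ligand passed. The Cxcl10 change in SV129 was smaller than in C57 by a log2 difference of -1.86, with an interval from -2.51 to -1.20 (limma, adjusted p = 0.035), where 0.0361% of genes passed. Leaving out any of 13 single arrays moved it past 0.05, with adjusted p up to 0.125, and it was 0.058 with the mouse number as a block and 0.18 with an ordinary linear model. The Cxcl10 change in C57 minus that in C3H was 1.81 (interval 1.15 to 2.46, adjusted p = 0.12), where 0.00451% of genes passed. It passed without C3H CBE 1 (adjusted p = 0.0085), without C57 CBE 1 (0.0053) and with FVB CBE 1 and C3H CBE 1 both out (0.0038). Between FVB and C57 the differences were above 0 for Cxcl9 and Cxcl11 and below 0 for Cxcl10, but none passed, and 0.00451% of genes did. The change in FVB minus that in C57 was 1.58 for Cxcl9 (interval 0.53 to 2.64, adjusted p = 1.0), -1.10 for Cxcl10 (interval -1.76 to -0.45, adjusted p = 0.97) and 1.38 for Cxcl11 (interval 0.79 to 1.97, adjusted p = 0.32). For Cxcl9 it was 0.82 without FVB CBE 1. For Cxcl11 the difference passed without C3H CBE 1 (adjusted p = 4.5e-05), as did SV129 minus FVB (adjusted p = 5.3e-06) and FVB minus C3H (adjusted p = 5.4e-04). With all arrays neither of these 2 passed: SV129 minus FVB was -1.56 (interval -2.15 to -0.98, limma, adjusted p = 0.076) and FVB minus C3H 0.86 (interval 0.27 to 1.45). Cxcl11 in SV129 minus FVB also passed with median centring (limma, adjusted p = 0.042) and with quantile normalization (0.044). With all arrays, 0 genes passed for SV129 minus FVB and 1 gene, 0.00451%, for FVB minus C3H. The smaller change of Cxcl9 in SV129 than in FVB, -2.16 (adjusted p = 0.29), was -1.40 without FVB CBE 1 (adjusted p = 0.033).

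Among the 12 CBE mice, the ligands were also compared mouse by mouse, as deviations from the mean of their own group. Cxcl10 and Cxcl11 deviated together, with Pearson's r = 0.69 (permutation within strains, p = 0.010, 0.060 adjusted over 6 pairs) and Spearman's rho = 0.71 (p = 0.0082, adjusted 0.049). Without C57 CBE 3 and C3H CBE 1, the farthest for Cxcl10, r was 0.51. For Cxcl9 and Cxcl10 r was -0.28 (adjusted permutation p = 0.61), and 0.10 without FVB CBE 1 and FVB CBE 3, the farthest for Cxcl9. For Cxcl9 and Cxcl11 r was 0.14 (adjusted permutation p = 0.63), and 0.55 without the same mice. FVB CBE 1 had the highest Cxcl9 of its group and the lowest Cxcl10. C3H CBE 1 was highest of its group for all 3 ligands.

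**Figure D3:**
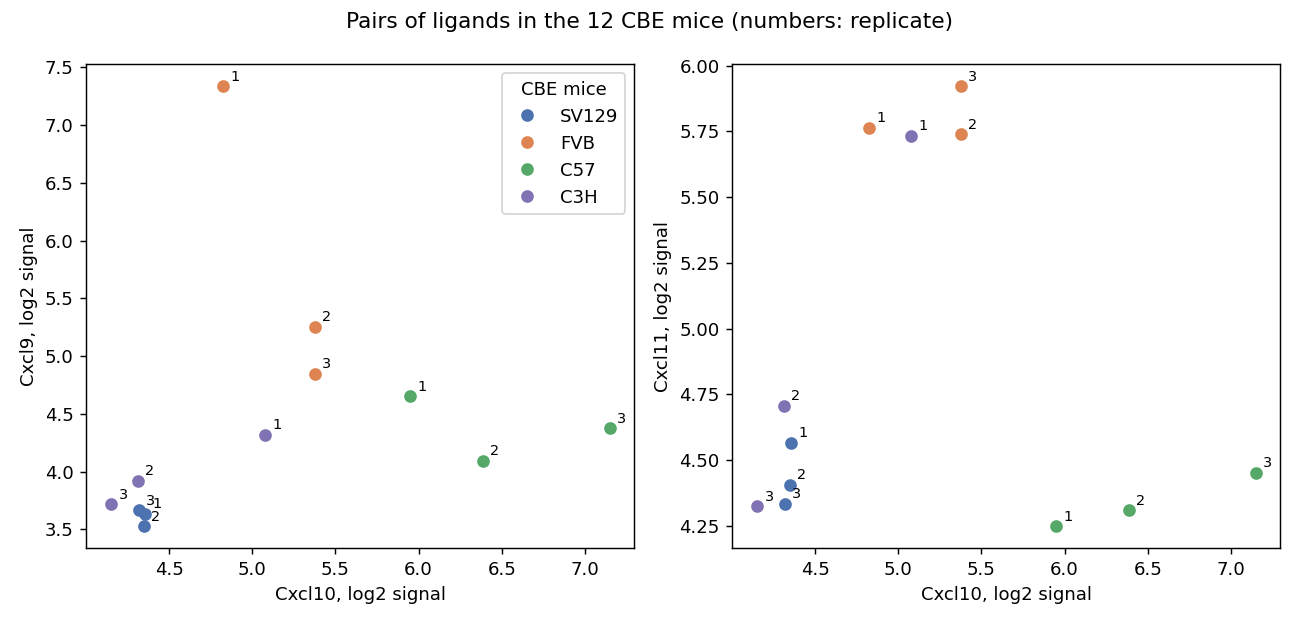
Log2 signal of Cxcl9 (left) and Cxcl11 (right) against Cxcl10 in the 12 CBE mice, coloured by strain. FVB CBE 1 lies at 7.33 for Cxcl9 with 4.83 for Cxcl10, and the 3 C57 mice lie at the highest Cxcl10, 5.95 to 7.15, with Cxcl11 between 4.25 and 4.45.

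Over the 24 arrays the genes most like each ligand differed. Strain and agent are part of these correlations, so they carry no p. Cxcl10 was most like Ccl12 (r = 0.969), a monocyte-attracting chemokine, Rsad2 (0.964), an antiviral enzyme, Rnf213 (0.959), Isg15 (0.951), a ubiquitin-like protein, Oasl2 (0.942) and Parp14 (0.937). Cxcl9 was most like Gbp10 (0.897), a guanylate-binding protein, Gm10499 (0.896), H2-Ab1 (0.889), which encodes a chain of the class II antigen-presenting molecule, Psmb9 (0.802), a subunit of the immunoproteasome, Ms4a4c (0.801) and Madcam1 (0.799). These genes were picked by likeness to Cxcl9, which FVB CBE 1 weighs on most, so its values in them are only a description: H2-Ab1 read 8.39 against 6.22 and 5.53, Gbp10 7.46 against 6.87 and 6.30, and Psmb9 4.15 against 3.68 and 3.56. For Cxcl11 the list was Gbp10 (0.802), Cxcl13 (0.797), Siglecf (0.776), Olfr703 (0.775), Plg (0.773) and Gm14925 (0.769). Cxcr3 was most like A2ml1 (0.795), Olfr723 (0.758), Fmn1 (0.740), Slc9a3 (0.739), Gm13149 (0.738) and Nuggc (0.735). A2ml1, Slc9a3 and Nuggc, like Cxcr3, lay near the low end of the scale, as did Olfr703, Plg and Gm14925 of the Cxcl11 list. Whether such likeness is more than background signal was not tested. Cxcl9 and Cxcl11 correlated at 0.755, rank 21 of all genes for Cxcl9, and Cxcl10 at 0.497 with Cxcl9 and 0.462 with Cxcl11.

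Upstream of the ligands, 3 of 18 measured genes of interferon receptors and their signalling rose over the 4 strains, and none fell. Of all genes, 0.609% rose and 0.117% fell. The median change of the 18 was 0.02, beside -0.01 for all genes. The 3 were Irf7 (1.25, adjusted p = 1.8e-05), the amplifier of type I interferon, and Stat2 (0.54, adjusted p = 2.8e-05) and Irf9 (0.85, adjusted p = 3.8e-05), which act at the interferon-stimulated response element. The interferon transcripts themselves were low and did not pass: Ifng changed by 0.01 (adjusted p = 0.96) and Ifnb1 by 0.01 (adjusted p = 0.98). Of 10 measured genes that lean towards interferon-gamma, 6 rose and none fell, with a median of 0.55. They include Igtp (1.06, adjusted p = 9.0e-06), Gbp3 (0.95, adjusted p = 6.7e-05), Iigp1 (1.28, adjusted p = 7.8e-04) and Irgm1 (0.85, adjusted p = 0.0016), guanosine triphosphatases of cell-autonomous defence. Those that did not pass were Ciita (0.06), Ido1 (-0.02), Nos2 (-0.02) and H2-Ab1 (0.67, limma, adjusted p = 0.16). By strain, 4 of the 10 passed in C57, 2 in FVB, 0 in C3H and 0 in SV129 (limma). Of all genes, 0.316%, 0.135%, 0.0361% and 0.0135% rose in that order. The medians of the 10 were 0.67, 0.98, 0.48 and 0.11 in the same order. At an unadjusted p under 0.05, 6, 7, 5 and 0 of the 10 rose, beside 2.87%, 2.94%, 2.91% and 4.35% of all genes. These counts turned on single arrays and settings: without C3H CBE 1, Iigp1 (adjusted p = 0.0066) and Irgm1 (0.026) also passed in FVB, and Iigp1 (0.012) in C57. Gbp3 in FVB was lost when any 1 of 5 arrays was left out (limma, adjusted p up to 0.17), and with an ordinary linear model (0.14). Gbp3 in C57 was lost when any 1 of 3 arrays was left out (up to 0.12), and with an ordinary linear model (0.073). In C57, Irgm1 (adjusted p = 0.039) was lost when any 1 of 13 arrays was left out (up to 0.26), and with an ordinary linear model (0.18).

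Of 13 other CXC and CX3C ligands, 2 rose and none fell, with a median of 0.01, where 0.609% of all genes rose. Cxcl13, which draws B cells, changed by 1.89 (adjusted p = 1.4e-06), and Cxcl16, a membrane-bound ligand, by 0.61 (adjusted p = 6.9e-05). Cxcl13 had its largest change in FVB, as Cxcl9 and Cxcl11 had: 4.37 there (adjusted p = 1.1e-06), against 1.54 in SV129, 1.00 in C57 and 0.65 in C3H, and its changes differed between strains (interaction adjusted p = 0.010). Without SV129 PBS 1, the highest PBS mouse of that strain for Cxcl13, the SV129 change was 2.07 (limma, adjusted p = 0.0045). Beside the same 0.609% of all genes, 4 of 17 measured CC ligands rose and none fell, with a median of 0.08. These were Ccl5 (1.84, adjusted p = 5.3e-08), which attracts T cells, Ccl12 (0.95, adjusted p = 2.5e-06), Ccl3 (1.62, adjusted p = 2.6e-04), a ligand made by activated microglia, and Ccl9 (0.54, adjusted p = 0.038). The Ccl9 call was lost when any 1 of 13 arrays was left out (adjusted p up to 0.092). Ccl12 had its largest change in C57, as Cxcl10 had: 1.63 there and 1.12 in FVB, which both passed, and 0.61 in SV129 and 0.44 in C3H, which did not. The FVB value of Ccl12 missed the threshold with an ordinary linear model (adjusted p = 0.062). Ccl5 changed by 2.92 in FVB and 2.70 in C57, which both passed, and by 1.26 in C3H and 0.50 in SV129, which did not.

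Downstream, 0 of 20 other measured chemokine receptors passed in either direction over the 4 strains (limma; also 0 at an unadjusted p under 0.05, where 10.7% of all genes passed), with a median of 0.01. The nearest were Cx3cr1 (0.16, adjusted p = 0.53), the microglial receptor of fractalkine, and Ackr2 (0.12, adjusted p = 0.57), a scavenger of CC chemokines. Of 7 genes of receptor signalling and ligand clipping, Rac2, a blood-cell guanosine triphosphatase, rose (0.39, adjusted p = 0.0095), where 0.609% of all genes rose. Dpp4, the protease that clips CXCR3 ligands, changed by -0.06 and did not pass.

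**Figure D4:**
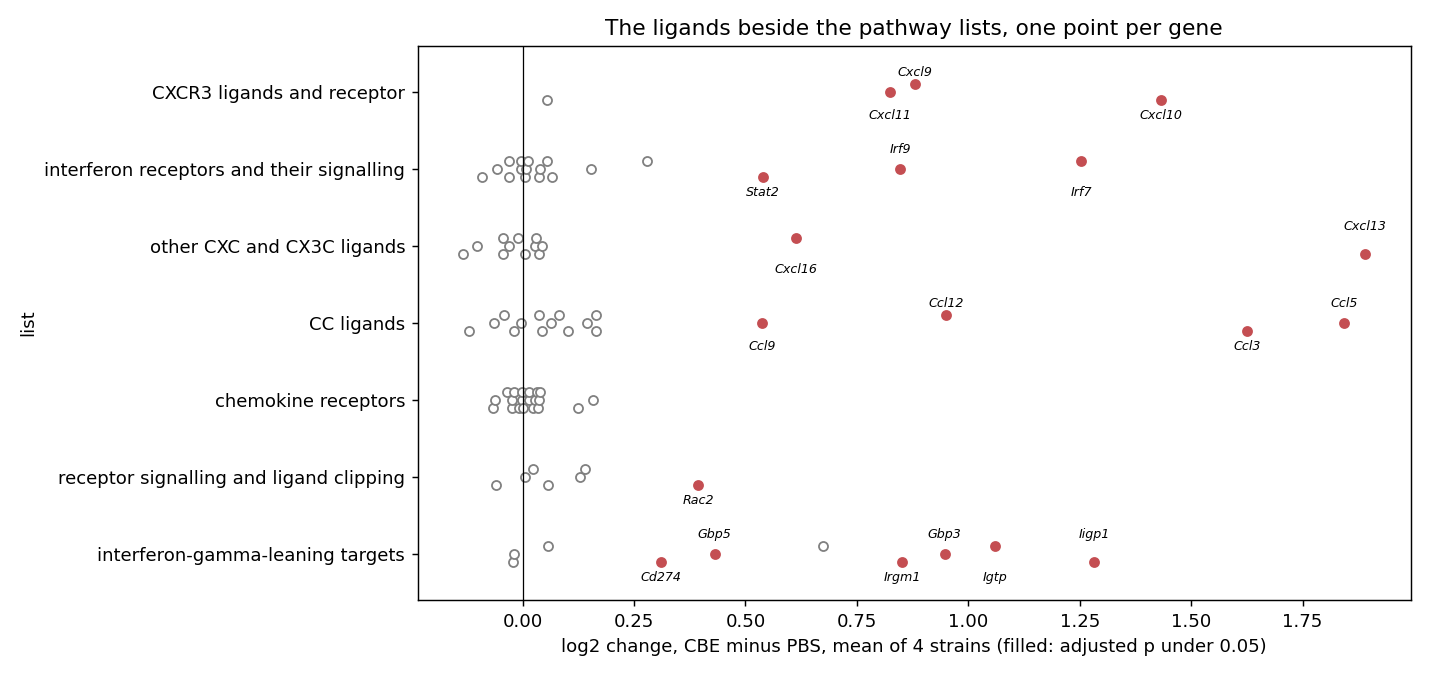
Mean change of 4 strains (log2, horizontal axis) for the 4 genes and for 6 lists of related genes, 1 point per gene, filled where the adjusted p was under 0.05. The filled points lie among ligands and interferon-related genes, with 1 in receptor signalling (Rac2, 0.39) and none among the chemokine receptors.

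Markers of the cells that would carry the receptor did not pass. In whole tissue, fewer cells of a type and less RNA per cell cannot be told apart. Of 17 measured T and natural killer cell markers, 0 passed over the 4 strains (limma; 1 at an unadjusted p under 0.05, where 3.98% of all genes rose and 6.77% fell). All 17 lay below the median of all values with either agent, and their mean per array ran from 3.49 to 3.66 with PBS and from 3.52 to 3.69 with CBE. For 4 B cell markers 0 passed (0 unadjusted), with means of 3.44 to 3.56 with PBS and 3.48 to 3.59 with CBE. For 7 monocyte and neutrophil markers 0 passed (1 unadjusted), with means of 3.63 to 3.78 and 3.64 to 3.88. Among cells that can make the ligands, 1 of 9 microglial markers rose (Csf1r, 0.29, adjusted p = 0.033), beside 0.609% of all genes. At an unadjusted p under 0.05, 4 of the 9 rose and 0 fell. The microglial mean ran from 6.07 to 6.57 with PBS and from 6.15 to 6.83 with CBE. C3H CBE 1, the C3H mouse with the most of all 3 ligands, had the 6.83, against 6.39 and 6.52 in the other C3H CBE mice. Of 7 astrocyte markers 0 passed (1 unadjusted), with means of 9.27 to 9.47 with PBS and 9.35 to 9.59 with CBE. Of 6 endothelial markers 0 passed (0 unadjusted), with means of 6.29 to 6.81 and 6.38 to 6.97. Within strains some means did not overlap: the endothelial mean in C57 was 6.71, 6.51 and 6.67 with PBS and 6.97, 6.81 and 6.88 with CBE. The microglial mean in FVB was 6.24 to 6.28 with PBS and 6.35 to 6.46 with CBE. The monocyte and neutrophil mean in SV129 was 3.63 to 3.69 with PBS and 3.72 to 3.88 with CBE. The cortical neuron mean in C57 was lower with CBE, 8.530 to 8.585, than with PBS, 8.625 to 8.695. These were picked from every marker list in every strain, and in all the others the agents overlapped. For single genes, 3 CBE arrays lay above 3 PBS arrays in 6.52% of all genes in SV129, 5.09% in FVB and 5.82% in C57. The share with 3 CBE arrays below 3 PBS arrays was not counted, so the neuron mean has none beside it. The part of these markers in the ligand levels was not tested.

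The neighbours of the 3 ligand genes on chromosome 5 did not change with them. In RefSeq's order Ppef2, Naaa and Sdad1 lie on one side of Cxcl9, Art3 between Cxcl9 and Cxcl10, and Nup54, Scarb2 and Fam47e beyond Cxcl11. These 7 were chosen after the values of the ligands were seen. Their mean changes ran from -0.10 (Sdad1) to 0.15 (Naaa), and none passed (limma, adjusted p = 0.48 or more). In SV129 Sdad1 changed by -0.34 ± 0.12 (limma, adjusted p = 0.24), Nup54 by -0.29 ± 0.11 (0.25) and Naaa by 0.27 ± 0.15 (0.44). Ppef2 (3.41 with PBS) and Fam47e (3.70) lay below the median of all values, where a change can be hidden. Art3, which lies on the opposite strand and spans Cxcl10 and Cxcl11, changed by 0.05 ± 0.05 (adjusted p = 0.81). Scarb2 encodes the protein that carries glucocerebrosidase, the target of CBE, to the lysosome, and changed by 0.04 ± 0.04 (adjusted p = 0.81).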

How the data were processed

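Per the submitters' processing notes, the authors used RMA and Partek, with neither version nor order named. Per the labels' protocols, 100 ng of total RNA was labelled with the GeneChip WT PLUS kit. The deposited values are log2 signals of 41034 probe sets; the base was inferred from the top value, 14.09, because 17442, its antilog to base 2, fits a 16-bit scanner. Arrays hold no read counts, so their number limits precision. Platform symbols, which can be old, named 23521 probe sets with 1 symbol; 1814 had several and 15699 none. The probe set with the highest mean stood for each of 1082 genes with several.

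Limma 3.58.1 in R 4.3.3 fitted 1 mean per group on all 24 arrays, with 16 residual and 5.098 prior degrees of freedom. Tests were two-sided, with Benjamini-Hochberg adjustment over 22180 genes within a comparison and 0.05 as threshold. Between 3 and 3 mice an exact test cannot go below 0.1, so single strains lean on the shared spread. Exact permutations exchanged agents within strains in 160000 ways, and correlations among CBE mice used 100000 within-strain permutations. The procedure was tested on simulated data. No 2 arrays held identical values. The members and lists were chosen with earlier results of these data known.

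Besides the 4 genes, up to 4 passing members per list were named by smallest p, or 2 where none passed, and the 6 genes most correlated with each of the 4. Other genes named (Ifng, Ifnb1, Ciita, Ido1, Nos2, Dpp4, Csf1r and the neighbours) were chosen after their values were seen. Alternatives were median centring, quantile normalization, leaving out dim genes, averaging probe sets, an ordinary linear model, an intensity trend with robust prior, own arrays of a strain, mouse number as a block, and each array left out. Some genes of the lists were not analysed here.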

Additional observations from a re-analysis of the deposited data

Results flagged for a closer look

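The Cxcl10 change differed between strains in 1 pair: the change in SV129 minus that in C57 was -1.86 (limma, adjusted p = 0.035 over all genes). Cxcl10 was higher with CBE in 3 of 3 mice of both strains, as for 6.52% of all genes in SV129 and 5.82% in C57. SV129 CBE mice read 4.32 to 4.35 and C57 CBE mice 5.95 to 7.15. The share of all genes set apart in this way between these strains was not counted. Over the 24 fits that each left out 1 array the difference ran from -2.13 to -1.53 and its adjusted p from 0.0031 to 0.125. The adjusted p was 0.18 with an ordinary linear model and 0.058 with the mouse number as a block.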

How the results depend on the processing

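Of 142 changes of the ligands (each strain and their mean) under other settings, 138 kept their direction and side of the threshold and 0 turned. Most settings could not turn one, since with equal groups and 1 probe set per ligand they alter only the p-value. Only median centring, quantile normalization and leaving out both mice could alter the size or direction. With an ordinary linear model the mean Cxcl9 change, 0.88, missed the threshold, as did Cxcl9 in FVB, 2.26, on the FVB arrays alone. On the SV129 arrays alone Cxcl10 in SV129, 0.77, passed. With FVB CBE 1 and C3H CBE 1 left out together, chosen after seeing the data, Cxcl9 in C57, 0.68, passed. That setting gave adjusted p of 0.0054 (Cxcl9), 0.0031 (Cxcl10) and 1.2e-04 (Cxcl11) for equality over strains, and median centring 0.042 for Cxcl10. Cxcr3 turned to -0.013 in SV129 with median centring and to -0.062 in FVB with both mice out. The Cxcl10 change in SV129 minus C3H turned from -0.048 to 0.23 with both out. Cxcl9 and Cxcr3 fell to the filter on dim genes and have no value there. The causes were not tested.

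With single arrays left out, Cxcr3 ran from -0.038 to 0.12 in SV129, -0.062 to 0.11 in FVB and -0.025 to 0.045 in C57. Cxcl9 in C57 ran from 0.54 to 0.82, Cxcl11 in C3H from 0.51 to 1.22, and Cxcl10 in SV129 minus C3H from -0.23 to 0.23. The adjusted p for equality ran from 0.0041 to 0.27 for Cxcl10 and from 1.5e-05 to 0.32 for Cxcl11.

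Counts of all genes passing moved more. Single arrays left out gave 132 to 244 for the mean of strains (161 with all arrays), 7 to 219 for SV129 (25), 25 to 85 for FVB (30), 30 to 136 for C57 (72), 3 to 52 for C3H (8) and 0 to 25 for equality (2). SV129 had 143 with median centring, 60 without dim genes, 7 with the ordinary model, 39 with trend and robust prior and 4 on its own arrays. FVB had 58 on its own arrays and 72 with both mice out, and C57 36 with the ordinary model and 132 with both out. C3H had 13 with quantile normalization, 2 with the ordinary model, 13 with the trend and 0 on its own arrays. Equality had 6 with centring, 4 without dim genes, 0 with the ordinary model, 1 with the trend and 24 with both out.

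Mouse numbers did not pair the mice: same-numbered mice of a strain correlated in their deviations at -0.19 to 0.20, with 3 of 12 over 0.1, and 5 of 12 CBE arrays correlated best with their own number. A replicate block on the number cannot alter the mean changes, since each number occurs once in each group, and only their p-values could move. With it they were 1.43 (Cxcl10, limma, adjusted p = 3.4e-07), 0.88 (Cxcl9, 0.014), 0.82 (Cxcl11, 1.3e-04) and 0.06 (Cxcr3, 0.76), and 164 genes passed. With the number within strain as a block, added after seeing the data, 148 passed. The block on the number took the Cxcl10 difference of SV129 and C57 past 0.05 (0.058), the mean Ccl9 change (0.060, or 0.073 with the block within strain) and Irgm1 in C57 (0.057, or 0.071). With the block within strain the Cxcl10 difference stayed under 0.05 (limma, adjusted p = 0.036).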
